A study of Mus musculus with 4 samples.

Results

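The peaks described here lie in 2 kinds of listed gene, pseudogenes and processed transcripts, and were drawn from the m6A peak lists of mouse embryonic stem cells. A peak was taken when the gene biotype listed beside it contained the word pseudogene or was processed_transcript, on chromosomes 1 to 19, X, Y or MT. Of the 46417 peaks in the 4 lists, 2214 met this rule. Pseudogenes held 1764 of them in 489 genes, and processed transcripts held 450 in 121 genes. In all, 9960 genes had a listed peak.

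Mettl5-/- cells gave 2 libraries and wild-type cells gave 2 libraries, all from embryonic stem cells of the C57BL/6N strain. Both genotypes went through the same precipitation: total RNA in fragments of about 200 nucleotides was pulled down with an antibody against m6A before sequencing (MeRIP-seq). The labels' treatment text also describes the formation of embryoid bodies and a neural differentiation, while the titles and sources of all 4 libraries name embryonic stem cells. The wild-type libraries are titled "Ctr" (called wild type 1 here) and "WT" (wild type 2). The labels say neither how the knockout was made nor whether 2 libraries of the same genotype stem from different cultures or clones, and their spread may thus be technical. Mettl5 itself had 0 listed peaks in every library, so the genotype cannot be checked against it. The deposited lists held 12699 and 10821 peaks in knockout 1 and knockout 2, and 11696 and 11201 peaks in wild type 1 and wild type 2. Read depth per library is unknown, so list length is the only measure of size here.

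A pseudogene is a copy of a gene that has lost the intact reading frame. Processed pseudogenes arose when a spliced mRNA was copied back into the genome, so they usually have no introns and resemble the exons of a parent gene elsewhere. Processed transcript is an annotation class for spliced RNAs without an open reading frame, among them hosts of small nucleolar RNAs and transcripts antisense to coding genes. N6-methyladenosine (m6A) is the most abundant internal mark of mRNA, written by the METTL3-METTL14 complex mostly at an adenosine within GGAC and related motifs, while METTL5 methylates an adenosine of the small-subunit ribosomal RNA.

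Where a peak of all 4 lists shared a stretch with a promoter window of the RefSeq annotation, its letters can be read. Such a window runs from 250 bases before to 50 bases after the start of a RefSeq gene. Over the 4 lists, 69 peaks of 21 genes touched a window, and 9 stretches were common to all 4 lists. The 5 printed here show processed transcripts that lie against the start of a coding gene and pseudogenes of 2 clusters, on chromosomes 4 and 13. Each is on the strand of the listed gene in GRCm38.p6 (mm10), with every GGAC in capitals. D130058E05Rik, which RefSeq lists as a synonym of Gbx2, covers chr1:89931127-89931426 on the plus strand, against the start of the homeobox gene Gbx2. E230029C05Rik covers chr7:89980927-89980992 on the plus strand, at the start of Eed, a subunit of the Polycomb repressive complex that methylates histone H3. Gm16163 covers chr8:124862850-124863026 on the plus strand, before the start of Gnpat, an enzyme of peroxisomal ether lipid synthesis. Gm13169 covers chr4:146240043-146240253 and AC124426.1 covers chr13:62015675-62015873, both on the plus strand.
D130058E05Rik: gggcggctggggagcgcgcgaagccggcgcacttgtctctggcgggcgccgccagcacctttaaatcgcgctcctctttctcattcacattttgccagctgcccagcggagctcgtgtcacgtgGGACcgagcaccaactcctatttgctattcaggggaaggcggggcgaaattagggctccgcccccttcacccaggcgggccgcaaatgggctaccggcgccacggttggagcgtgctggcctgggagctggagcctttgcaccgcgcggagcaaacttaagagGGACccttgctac
E230029C05Rik: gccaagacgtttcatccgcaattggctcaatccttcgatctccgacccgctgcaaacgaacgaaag
Gm16163: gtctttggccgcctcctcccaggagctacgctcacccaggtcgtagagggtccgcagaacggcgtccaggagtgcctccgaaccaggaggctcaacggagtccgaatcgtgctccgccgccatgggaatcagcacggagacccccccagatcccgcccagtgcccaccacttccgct
Gm13169: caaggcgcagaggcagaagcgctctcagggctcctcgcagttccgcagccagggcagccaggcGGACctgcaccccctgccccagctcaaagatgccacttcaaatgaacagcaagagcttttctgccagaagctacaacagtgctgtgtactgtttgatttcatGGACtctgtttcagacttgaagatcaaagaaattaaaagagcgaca
AC124426.1: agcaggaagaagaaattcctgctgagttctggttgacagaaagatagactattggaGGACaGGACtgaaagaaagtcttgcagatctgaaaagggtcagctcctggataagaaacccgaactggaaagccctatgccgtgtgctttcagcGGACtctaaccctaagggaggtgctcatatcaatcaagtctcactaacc
GGAC was searched on both strands. On the strand shown, the stretch of D130058E05Rik held 2 copies, that of Gm13169 held 2 and that of AC124426.1 held 3, while those of E230029C05Rik and Gm16163 held 0. The Gm16163 stretch held 3 copies on the opposite strand. Among the stretches not printed, those of the pseudogenes 2810025M15Rik (211 bases) and A930035D04Rik (109 bases) held 0 copies on the gene strand. That of A930035D04Rik held 1 on the opposite strand. The unprinted stretches of Gm20427 (11 bases) and of Gm16163 at another gene start (47 bases) held 0 on either strand. GGACT, the motif with a T added, occurred 1 time in Gm13169 and 2 times in AC124426.1. Of all 32851 RefSeq promoter windows of 300 bases, 65.6% held GGAC on the strand of their gene and 87.7% on either strand, and 26.1% held GGACT. The printed stretches other than that of D130058E05Rik are shorter than 300 bases, and a match describes these letters without marking a methylated site.

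The share of pseudogene peaks was highest in 1 knockout library, and the share of processed transcript peaks was alike in all 4. Pseudogenes had 544 peaks (4.28% of the list, 95% Wilson interval 3.95 to 4.65%) in knockout 1 and 407 (3.76%, 3.42 to 4.14%) in knockout 2, against 415 (3.55%, 3.23 to 3.90%) in wild type 1 and 398 (3.55%, 3.23 to 3.91%) in wild type 2. The interval of knockout 1 lay above those of both wild-type lists, and the interval of knockout 2 overlapped both. The mean share was 4.02 ± 0.370% in knockout and 3.55 ± 0.00356% in wild type (SD, n = 2 each), a difference of 0.472 percentage points that is close to the SD of the knockout libraries. With every list shortened to the 10821 strongest peaks, the shares were 3.98% and 3.76% in knockout against 3.50% and 3.48% in wild type. Intervals cover counting error only.

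Processed transcripts had 131 peaks (1.03%) in knockout 1 and 98 (0.906%) in knockout 2, against 109 (0.932%) in wild type 1 and 112 (0.9999%) in wild type 2. The mean share was 0.969 ± 0.0890% in knockout and 0.966 ± 0.0481% in wild type (SD, n = 2 each), and the libraries of the genotypes overlapped. With 2 libraries against 2, an exact permutation test, two-sided, cannot give a p below 0.333, so no difference between genotypes was tested.

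**Figure D1:**
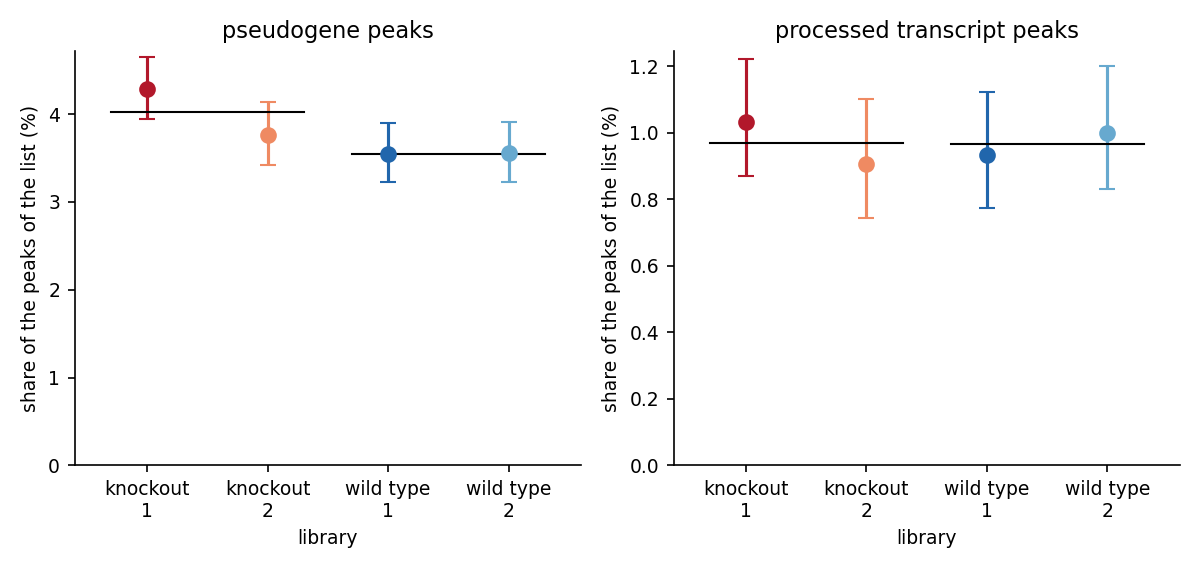
Share of each peak list (%, y axis) held by pseudogene peaks (left) and processed transcript peaks (right) in each library (x axis). Points are libraries with 95% Wilson intervals, and black lines are the means of the 2 knockout and the 2 wild-type libraries; knockout 1 has the highest pseudogene share at 4.28%, and the processed transcript shares lie between 0.906% and 1.03%.

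Both kinds were weaker than the other peaks of the same lists. Strength is given here as the percentile of the authors' p-value within its own list, 100 being the smallest p-value, and fold enrichment is also the authors' own; neither is set against another list as a level. The median pseudogene peak stood at percentile 41.3 and 37.4 in knockout 1 and 2, and 41.0 and 35.7 in wild type 1 and 2. The median processed transcript peak stood at 36.5 and 37.4 in knockout, and 38.0 and 39.4 in wild type. All other peaks had medians between 50.7 and 50.9, above every list's value for both kinds. The pseudogene medians of the genotypes overlapped. The processed transcript medians did not, with 36.9 ± 0.608 in knockout and 38.7 ± 0.980 in wild type (SD, n = 2 each), a difference of -1.76 percentiles that was not tested.

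The 2 kinds differed at the top of the lists. Of the pseudogene peaks, 2.94% and 2.95% in knockout and 2.65% and 2.26% in wild type were among the strongest 10% of their list. Of the processed transcript peaks, 6.11% and 9.18% in knockout and 7.34% and 8.04% in wild type were. The lowest processed transcript share was above the highest pseudogene share, and both kinds stayed under the 10.3% to 10.4% of the other peaks.

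**Figure D2:**
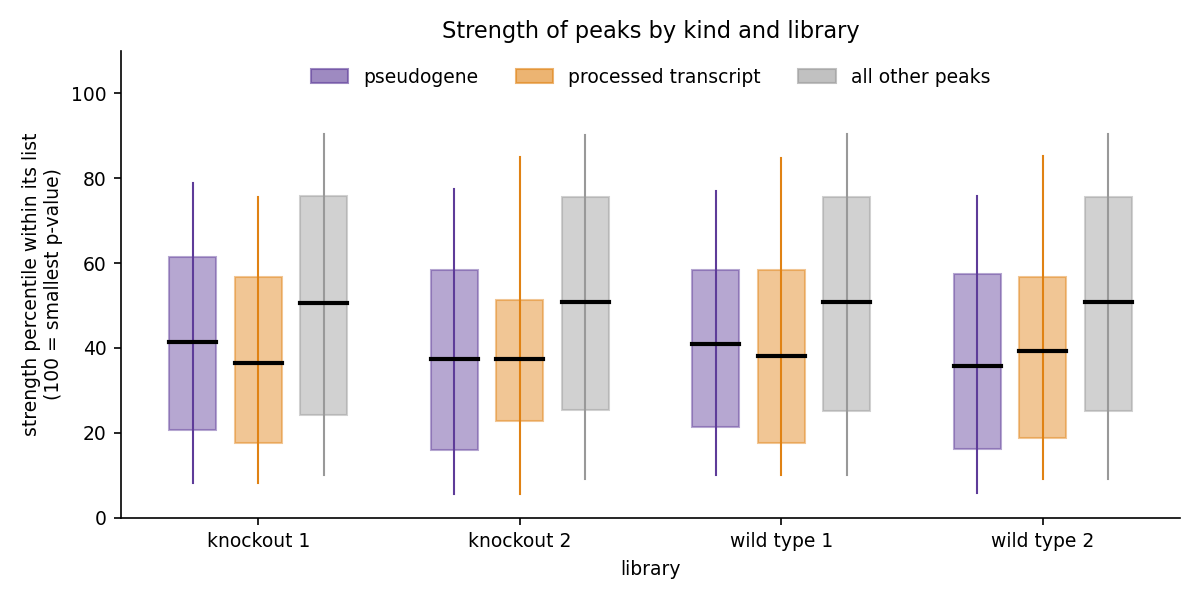
Strength percentile within its list (y axis, 100 for the smallest p-value) of pseudogene, processed transcript and all other peaks in each library (x axis). Boxes span the 25th to 75th percentile of the peaks, thin lines the 10th to 90th and black bars the median; in each library the medians of both kinds, from 35.7 to 41.3, lie below the median of the other peaks, from 50.7 to 50.9.

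Peaks of both kinds were also shorter. The median pseudogene peak covered 241 and 258 bp in knockout and 265 and 247 bp in wild type, and the median processed transcript peak covered 240 and 300 bp in knockout and 241 and 271 bp in wild type. The other peaks had medians of 356 to 361 bp. In structure the kinds parted: between 1.65% and 2.65% of pseudogene peaks were split over more than 1 exon block, against 9.82% to 10.2% of processed transcript peaks and 10.7% to 11.5% of the other peaks. Among the 1211 peaks of the biotype processed_pseudogene, copies of spliced mRNAs, 0.495% were split.

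Many of these weak peaks shared exactly the same p-value and fold. Peaks whose pair of values recurred at least 20 times in their list made up 57.4% and 42.3% of pseudogene peaks in knockout and 52.0% and 49.5% in wild type. For processed transcripts they made up 65.6% and 48.0% in knockout and 55.0% and 44.6% in wild type, and for the other peaks 43.9% and 28.9% in knockout and 39.3% and 33.1% in wild type. Such repeated values come from a small set of steps, the commonest fold being 8.81 in knockout 1, 8.96 in knockout 2, 8.68 in wild type 1 and 8.88 in wild type 2. Their order within a list therefore carries little information. An adjusted p-value of 0.05 or more was listed for 20 of the 544 pseudogene peaks of knockout 1. Knockout 2, wild type 1 and wild type 2 had 1, 1 and 2 such pseudogene peaks. For processed transcripts it was listed for 3 of 131 peaks in knockout 1 and for 1, 1 and 0 in the others. For the other peaks it was listed for 215 of 12024 in knockout 1 and for 22, 20 and 23 in the others. Knockout 1 thus had the most such peaks in each set.

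By biotype, processed pseudogenes made up most of the pseudogene peaks, with 1211 peaks in 366 genes and a median percentile of 38.0. The transcribed processed pseudogenes, which are annotated as copies with their own transcription, had 236 peaks in 49 genes and a median percentile of 47.1. Unprocessed pseudogenes, which arise by duplication and keep their introns, had 129 peaks in 40 genes, and their transcribed members had 110 peaks in 18 genes. Unitary pseudogenes, which have no intact counterpart in the same genome, had 29 peaks in 5 genes. A further 34 peaks in 9 genes carried the plain biotype pseudogene, of which 52.9% were split over several blocks, and 15 peaks in 2 genes were listed as polymorphic.

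The annotation of some of these genes differs between the lists and RefSeq. Of the 489 pseudogenes, 399 matched a RefSeq gene, and 318 of these were pseudogenes, 51 transcribed pseudogenes and 18 protein-coding genes there, among them the zinc finger genes Zfp640, Zfp939, Zkscan7 and Zscan30. Of the 121 processed transcripts, 82 matched, and 71 were long non-coding RNAs and 9 protein-coding in RefSeq, among them Zswim6, Ptpmt1, a mitochondrial lipid phosphatase, and Trerf1. D130058E05Rik counts among these 9 only as a synonym of Gbx2, which lies on the opposite strand. How reads that fit several places were handled is not given in the sources used here, so the gene of a peak is uncertain where near-identical copies exist.

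Among the pseudogenes present in all 4 lists, the 10 strongest reached the top percentiles with very different folds. AA414768, a processed pseudogene on chromosome X that RefSeq lists as protein-coding, had folds of 2280 and 594 in knockout and 1350 and 1880 in wild type, at percentiles 98.5 and 97.2 in knockout and 97.8 and 97.5 in wild type. Gm4617 on chromosome 3 had folds of only 12.2 and 8.19 in knockout and 7.17 and 5.09 in wild type, at percentiles 98.7 and 97.5 in knockout and 98.1 and 97.0 in wild type. Gm9800 on chromosome 14 was alike, with folds of 12.8 and 8.11 in knockout and 5.66 and 4.99 in wild type at percentiles 98.6 and 97.3 in knockout and 97.6 and 96.3 in wild type. A percentile near the top thus came with folds of 594 or more in AA414768 and of 12.8 or less in Gm4617 and Gm9800.

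Gm6768, listed by RefSeq as Ncoa4-ps, carries the name of Ncoa4, the receptor for the autophagy of ferritin. Its peak had folds of 114 and 114 in knockout and 202 and 129 in wild type, at percentiles 96.4 and 99.1 in knockout and 96.3 and 99.1 in wild type. Rps4l, named for its likeness to a protein of the small ribosomal subunit, had 9 peaks in 1 region of chromosome 6. Its best peaks had folds of 82.1 and 36.3 in knockout and 65.6 and 107 in wild type, at percentiles 96.7 and 94.4 in knockout and 96.2 and 99.1 in wild type. For both genes the knockout and wild-type percentiles overlapped. The other 5 of the 10 strongest pseudogenes, Gm13241, Gm10557, Gm12960, Gm13841 and Gm6542, had mean percentiles between 91.0 and 96.7.

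The strongest processed transcripts in all 4 lists reached higher percentiles at the very top than the pseudogenes. They fell away faster over the first 10, but these were drawn from 48 processed transcripts, against 235 pseudogenes. Gm10143 on chromosome 19 had 1 peak per list, with folds of 334 and 327 in knockout and 419 and 256 in wild type and percentiles of 99.5 and 99.1 in knockout and 99.4 and 99.1 in wild type. Its log10 p-value was minus infinity in all 4 lists, so these percentiles are the mid-rank of tied peaks. 1500004A13Rik, a long non-coding RNA on chromosome 3, had 18 peaks in 4 regions that were each present in all 4 lists. Its best peaks had folds of 289 and 245 in knockout and 941 and 296 in wild type, at percentiles 98.0 and 99.1 in knockout and 98.0 and 99.1 in wild type. Gm12992 had a mean percentile of 97.6, Gm20427 of 95.4 and Gm26788 of 91.6.

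D130058E05Rik, whose stretch at Gbx2 is printed above, had 12 peaks in 2 regions of chromosome 1, both present in all 4 lists. Gbx2 encodes a homeobox factor of the naive pluripotency network. The best peaks had folds of 363 and 127 in knockout and 173 and 190 in wild type, at percentiles 95.3 and 93.6 in knockout and 94.4 and 95.2 in wild type. The knockout libraries held both the highest and the lowest of the 4 percentiles. Among genes present in all 4 lists, the mean percentile of the 10 strongest was 81.3 or more for processed transcripts and 91.0 or more for pseudogenes. Above 90 stood 6 of these 48 processed transcripts and 10 of these 235 pseudogenes.

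**Figure D3:**
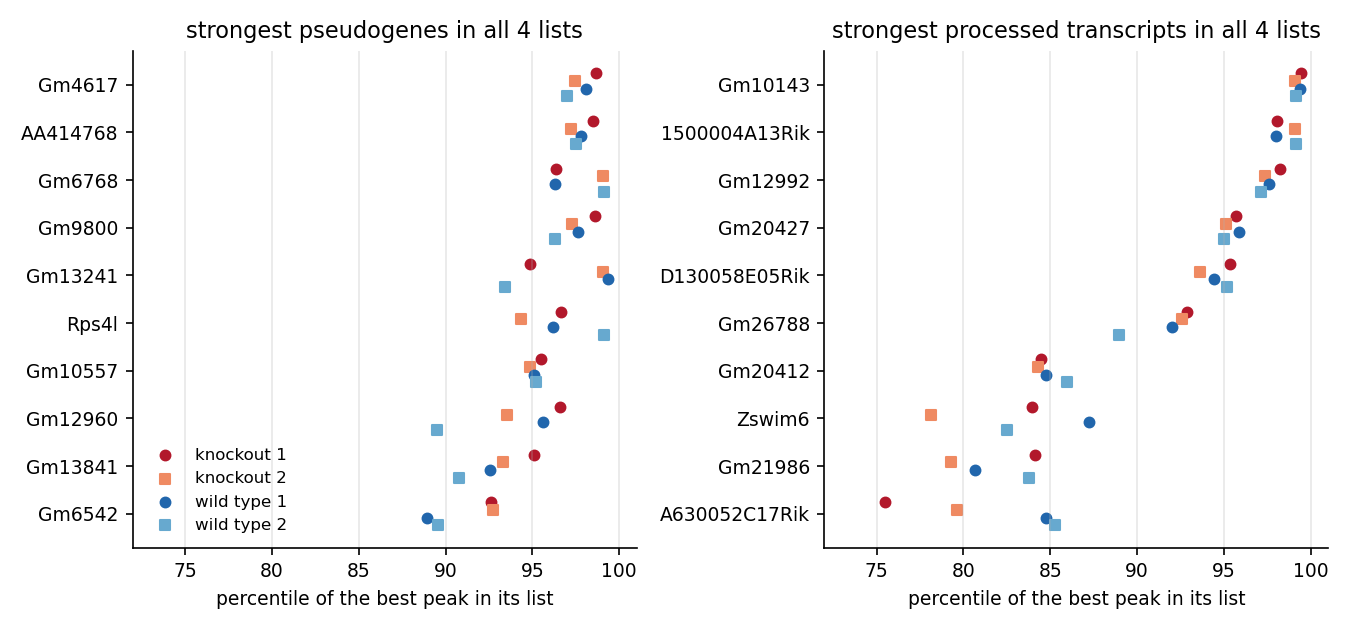
Percentile of the best peak within its list (x axis, 100 for the smallest p-value) for the 10 pseudogenes (left) and the 10 processed transcripts (right) with the highest mean percentile among those in all 4 lists. Each point is 1 library, red and orange for knockout 1 and 2 and dark and light blue for wild type 1 and 2; the pseudogene means lie between 91.0 and 97.8 and the processed transcript means between 81.3 and 99.3.

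Most genes of both kinds had a single place of enrichment. Of the 489 pseudogenes, 394 had 1 region, and of the 121 processed transcripts, 95 had 1. Most peaks among pseudogenes went to Gm10033 on chromosome 8, with 28 peaks in 7 regions, which RefSeq lists as protein-coding, and to Smarca5-ps on chromosome 4, named for a chromatin remodelling ATPase, with 18 peaks in 3 regions. Among processed transcripts, 1500004A13Rik was followed by Gm13110 with 14 peaks and Gm26672 with 13. The genes with a peak in all 4 lists numbered 235 of 489 pseudogenes (48.1%) and 48 of 121 processed transcripts (39.7%), against 5688 of all 9960 genes (57.1%).

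Genes named after a parent gene allow the copy to be set beside its parent. Of 65 pseudogenes with a -ps symbol in the lists or in RefSeq, 49 matched a protein-coding parent by name, 41 parents in all. Of these parents, 16 (39.0%) had a peak in any list, against 37.5% of the 21896 protein-coding genes of RefSeq. Of the 21 copies with a peak in all 4 lists, 12 had a parent without any listed peak. They include Gm6768 (Ncoa4-ps), Llph-ps2, Smarca5-ps, Fgfr3-ps and Anp32b-ps1, whose mean percentiles lay between 73.3 and 97.7.

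Copies and parents that were both present in all 4 lists numbered 5. Cdv3-ps stood at a mean percentile of 54.3 and its parent Cdv3 at 71.1, though the folds of the copy, from 5.02 to 18.4 over the 4 lists, reached above those of the parent, from 2.82 to 9.89. Gm10704, listed by RefSeq as Rtraf-ps, stood at 61.8 and Rtraf at 83.3. Bambi-ps1 stood at a mean percentile of 17.4 and Bambi, a decoy receptor of the TGF-beta family, at 78.5. Zfp422-ps stood at 39.4 and Zfp422 at 90.5, and Alms1-ps1 at 27.9 and Alms1, a gene of the centrosome and cilium, at 75.3. In all 5 pairs the copy had the lower mean percentile.

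Pseudogenes with the symbol of a ribosomal protein gene and -ps were few and weak; Rps4l has no such symbol, and pseudogenes named Gm were not assigned to a parent unless RefSeq gives a -ps name. Of 11 with such a symbol, 3 were present in all 4 lists and the highest single percentile was 53.2. Rps6-ps4 had folds of 2.10 and 3.43 in knockout and 5.19 and 4.84 in wild type, at percentiles 37.8 and 38.7 in knockout and 53.2 and 41.4 in wild type. Both wild-type percentiles were above both knockout percentiles. This was not tested, and ranks within separate lists show neither a change in level nor its absence. Rpl36-ps8 had a mean percentile of 25.7. Of the 47 other pseudogenes with a -ps symbol, 22 were present in all 4 lists, led by Znf41-ps with 86.6 and 80.4 in knockout and 85.7 and 80.1 in wild type. The median of the mean percentiles was 25.1 for the 11 and 26.2 for the 47. Low strength was thus not particular to the ribosomal protein symbols.

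Most members carry provisional names. Symbols of the form Gm and digits covered 353 pseudogenes, 166 of them in all 4 lists, and 52 processed transcripts, 23 of them in all 4. Symbols ending in Rik, from a large collection of mouse cDNA clones, covered 15 pseudogenes, 12 of them in all 4 lists, and 48 processed transcripts, 18 of them in all 4. Among the Rik pseudogenes, 1700030C10Rik stood at a mean percentile of 65.6 and 4930526A20Rik at 62.8. Among the Rik processed transcripts, E230029C05Rik, across from Eed, had folds of 15.0 and 7.36 in knockout and 34.7 and 18.5 in wild type, at percentiles 74.6 and 64.6 in knockout and 67.5 and 72.1 in wild type. Its percentiles overlapped between the genotypes.

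Few of the known non-coding RNAs that were looked up had a peak under the processed transcript biotype. Of 25 listed hosts of small nucleolar RNAs, 8 had a peak under any biotype and 4 had this biotype: Rian in 3 lists, Snhg14 in 2, and Gas5 and Snhg17 in 1 each. Rian, a maternally expressed RNA of the imprinted Dlk1-Dio3 domain, was absent from the knockout 1 list, with percentile 40.3 in knockout 2 and 43.3 and 40.4 in wild type. Snhg14, the host in the Prader-Willi region, had folds of 76.1 in knockout 1 and 153 in wild type 1. Of 21 names listed for nuclear and chromatin RNAs, 11 had a peak under any biotype. Firre, an RNA of the X chromosome, was the 1 with this biotype. It was listed in knockout 2 at percentile 28.0 and in wild type at 44.1 and 23.2. None of these 5 was present in all 4 lists. Under any biotype, 2 of the 25 hosts and 8 of the 21 names had a peak in all 4. The listed name Platr is a stem that was matched as a whole symbol. Platr16, a processed transcript listed in knockout 1 alone at percentile 73.5, was therefore not counted. Under its alternative symbol 1810026B05Rik, Chaserr, an RNA that restrains the neighbouring Chd2, was present in all 4, at percentiles 60.6 and 51.7 in knockout and 57.5 and 57.5 in wild type.

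Part of the pseudogene peaks lay close together on a few chromosomes. Chromosome 4 held 11.4% and 14.5% of the pseudogene peaks in knockout and 14.9% and 14.8% in wild type, against 6.33% and 6.07% of the other peaks in knockout and 6.39% and 6.47% in wild type. Chromosome 13 held 7.72% and 9.83% of the pseudogene peaks in knockout and 9.40% and 9.30% in wild type, against 3.83% to 4.09% of the other peaks. Chaining pseudogenes with a peak that lay within 500 kb of each other gave 5 clusters of at least 5 genes, a rule chosen after the values were seen. They held 341 peaks of 68 pseudogenes, against 1423 peaks of 421 pseudogenes outside them.

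The largest cluster, chr4:145449492-147822202, held 30 pseudogenes, among them Smarca5-ps, Znf41-ps, Gm13241, Gm13169 and Gm13135. RefSeq places 18 protein-coding genes there, of which 16 are Zfp genes or Rex2, and 14 of these had a peak. The cluster gave 44 and 41 pseudogene peaks in knockout and 45 and 44 in wild type. These counts lay within 4 peaks of each other. Of its 44 regions, 32 (72.7%) were present in all 4 lists, and 0 followed the genotype. Gm13241 had folds of 107 and 141 in knockout and 85.5 and 219 in wild type, at percentiles 94.9 and 99.1 in knockout and 99.4 and 93.4 in wild type.

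Both chromosome 13 clusters were smaller: chr13:64928239-66852856 held 18 pseudogenes with 84 peaks, and chr13:62015635-62670702 held 8 with 44 peaks, including AC124426.1. The peaks of AC124426.1 that hold the printed stretch had folds of 23.2 and 36.6 in knockout and 17.4 and 33.3 in wild type, at percentiles 47.5 and 45.6 in knockout and 35.9 and 44.3 in wild type. In the other region of the gene the best peaks covered 240 and 180 bp in knockout and 2208 and 1910 bp in wild type, at percentiles 56.4 and 53.0 in knockout and 81.3 and 78.5 in wild type. The regions thus ran in opposite directions, and the best peaks of the second covered unlike stretches. Neither was tested, and ranks within separate lists show neither a change in level nor its absence. Over the 5 clusters, 59 of 96 regions (61.5%) were present in all 4 lists, against 205 of 516 (39.7%) of the regions of other pseudogenes. Of those 59, 32 were in the chromosome 4 cluster, while the cluster on chromosome 12 had 4 of 9 regions (44.4%) in all 4 lists and that on chromosome 10 had 1 of 5 (20%). The median percentile of cluster peaks was 56.4 and 48.2 in knockout and 47.2 and 43.5 in wild type, against 38.4 and 34.2 in knockout and 38.9 and 33.1 in wild type for the other pseudogenes.

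The place of peaks along processed pseudogenes was alike in the 4 libraries. It could be measured for single-block peaks in genes with a RefSeq span, 314 and 228 peaks in knockout and 227 and 215 in wild type. The median midpoint lay at 48.7% and 49.0% of the gene in knockout and 46.9% and 49.6% in wild type, counted from the 5' end. The middle part of the gene, when cut into 3 equal parts, held 41.4% and 41.7% of the midpoints in knockout and 41.0% and 41.9% in wild type. The part nearest the 3' end held 27.1% and 27.6% in knockout and 26.4% and 27.9% in wild type. A peak covered a median of 16.8% to 17.7% of its gene, which keeps midpoints away from both ends, so these shares show no preference for the middle.

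**Figure D4:**
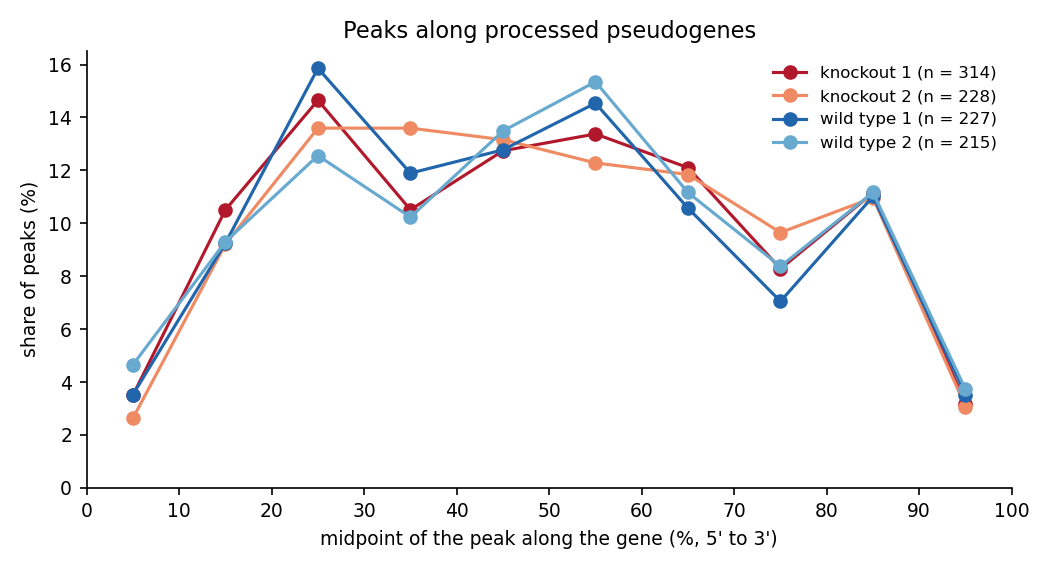
Midpoint of single-block peaks along processed pseudogenes (x axis, % of the RefSeq span from the 5' end, in 10 bins) and the share of peaks in each bin (y axis, %), with 1 line per library. All 4 lines are low in the first and last bins, where a peak's own width keeps its midpoint away, and the medians lie between 46.9% and 49.6%.

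Processed transcripts overlapped other genes far more often than pseudogenes did. Of the processed transcript peaks, 29.0% and 35.7% in knockout and 33.9% and 32.1% in wild type overlapped a peak of another gene in the same list. For pseudogene peaks the shares were 4.96% and 4.18% in knockout and 5.78% and 5.78% in wild type, and for the other peaks 7.07% to 7.55%. The overlap was mostly with the opposite strand, 21.4% and 24.5% of processed transcript peaks in knockout and 24.8% and 23.2% in wild type. Peaks that touched the promoter window of another protein-coding gene made up 9.16% and 5.10% of processed transcript peaks in knockout and 9.17% and 8.93% in wild type, against 0.551% to 0.964% of pseudogene peaks and 1.65% to 2.11% of the other peaks.

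No source used here names the libraries as strand-specific, so the gene of such a peak is uncertain. Of 43 pairs of a processed transcript and another gene, 31 were on opposite strands, 34 of the 40 processed transcripts had a protein-coding partner, and 18 pairs recurred in all 4 lists. The partners in all 4 include Notch1, the receptor, across from 0610009E02Rik; Tgm2, a transglutaminase, across from Gm20412; Kbtbd4 across from Ptpmt1; and Pcdhga10, a clustered protocadherin, across from Gm26672. On the same strand, Gm20427 shared peaks with Slc39a7, a zinc transporter, and Gm21986 with Nlgn3, a synaptic adhesion protein. Among pseudogenes, 29 pairs were found, 15 on opposite strands and 14 on the same, and 11 recurred in all 4 lists, such as Fgfr3-ps across from Nvl. Of the 10 strongest processed transcripts in all 4 lists, 1500004A13Rik, Gm20427, Gm20412, Gm21986 and A630052C17Rik overlapped a peak of another gene in at least 1 list. For 1500004A13Rik this was 1 of its 18 peaks. Of all 121 processed transcripts, 40 had such an overlap, so it was not confined to the strongest. Genes in fewer lists also had fewer lists in which to overlap.

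To follow peaks across libraries, those whose exon blocks overlapped by at least 1 bp were merged into 1 region, and a region belonged to a kind when any of its peaks did. This gave 612 pseudogene regions and 157 processed transcript regions, 5 of them shared, among 15487 regions in all. Of the pseudogene regions, 264 (43.1%) were present in all 4 lists, 81 in 3, 97 in 2 and 170 (27.8%) in 1. Of the processed transcript regions, 64 (40.8%) were in all 4, 30 in 3, 23 in 2 and 40 (25.5%) in 1. Over all regions 42.5% were in all 4 lists, close to the share of both kinds. Counting only regions whose every peak belonged to the kind left 247 pseudogene and 31 processed transcript regions in all 4 lists. Many of the 64 processed transcript regions thus also held peaks of genes outside the kind, which can supply their presence in a list. By gene, 48.1% of pseudogenes and 39.7% of processed transcripts had a peak in all 4 lists, against 57.1% of all genes.

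Regions that followed the genotype were few. Both knockout lists and neither wild-type list held 30 pseudogene regions (4.90%) and 2 processed transcript regions (1.27%), against a background of 2.51% over all regions. Both wild-type lists and neither knockout list held 4 pseudogene regions (0.654%) and 1 processed transcript region (0.637%), against a background of 2.02%. The 4 pseudogene regions became 8 with lists of equal length and 11 with a reciprocal overlap of 50%. The pseudogene count of 34 for the genotypes stood beside 37 and 26 for the crossed pairings of a knockout with a wild-type library, and the processed transcript count of 3 beside 8 and 12. Over all regions the genotypes had 701, beside 837 and 780 for the crossed pairings.

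Pairs that included knockout 1, the longest list, were the most numerous. Pseudogene regions found in exactly 2 lists numbered 30, 27 and 20 where knockout 1 was paired with knockout 2, wild type 1 and wild type 2. Pairs without knockout 1 numbered 6 for knockout 2 with wild type 1, 10 for knockout 2 with wild type 2 and 4 for the wild-type lists. Regions found in 1 list alone numbered 102 in knockout 1 and 20 in knockout 2, against 28 in wild type 1 and 20 in wild type 2. Over all regions the pairs with knockout 1 were also the more numerous, with 388, 563 and 486 in the same order, against 294, 274 and 313 without it. The order within these sets differed. Knockout 1 with knockout 2 was the highest pair for pseudogenes and the lowest of those with knockout 1 over all regions. The wild-type pair was the lowest for pseudogenes and the highest of those without knockout 1 over all regions. Knockout 1 held 1913 of the 4386 regions of a single list. With lists of equal length, 25 pseudogene regions were in both knockout lists only. Without knockout 1, 36 pseudogene regions were in both wild-type lists and not in knockout 2; without knockout 2, 132 were in knockout 1 and neither wild-type list.

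**Figure D5:**
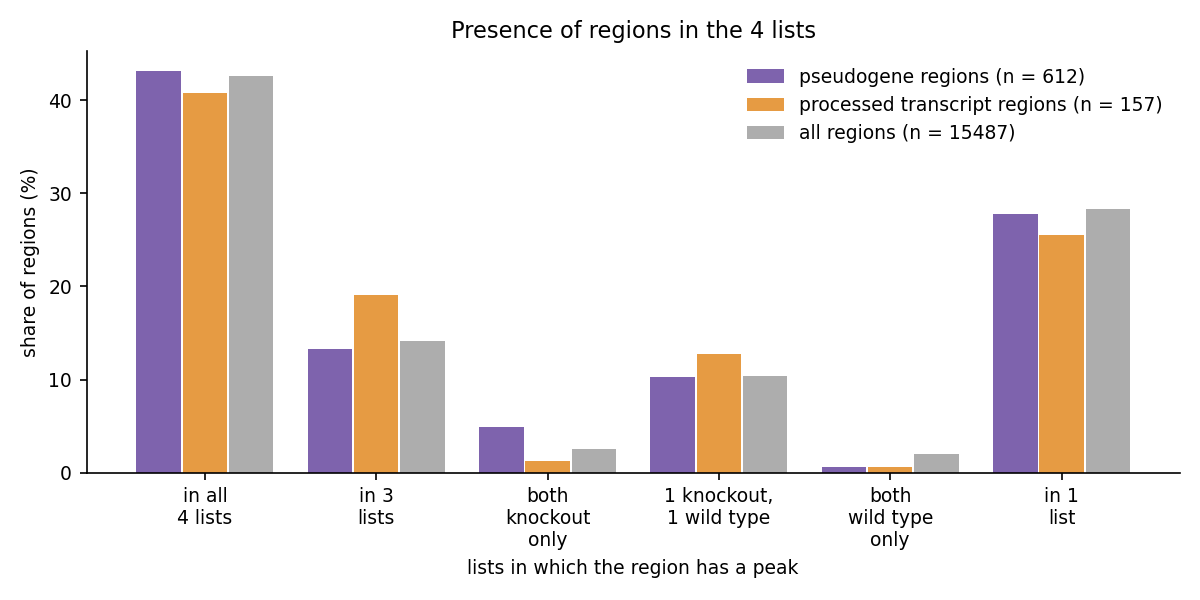
Share of regions (y axis, %) by the lists in which they have a peak (x axis), for pseudogene, processed transcript and all regions. In all 4 lists were 43.1%, 40.8% and 42.5% of them; in both knockout lists only 4.90%, 1.27% and 2.51%; and in both wild-type lists only 0.654%, 0.637% and 2.02%.

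Pseudogene regions in 2 lists had low medians, whether or not they followed the genotype. Processed transcript peaks of regions in 1 list of each genotype had a median percentile of 26.4, and 2 of these 40 peaks were among the strongest 10%. Both were of Trmt61b, at percentiles 91.1 in knockout 2 and 90.7 in wild type 2. Pseudogene peaks of regions in all 4 lists had a median percentile of 51.4, against 16.8 for those in both knockout lists only, 15.1 for those in both wild-type lists only, 16.2 for those in 1 list of each genotype and 10.02 for those in a single list. Of the 30 pseudogene regions in both knockout lists only, 22 held nothing but peaks with repeated values, as did all 4 in both wild-type lists only. By peak, 74.2% of those in both knockout lists only had repeated values, against 49.9% over all regions. For both wild-type lists only the shares were 100% of 8 peaks and 58.6% over all regions. Over all regions the median percentiles of these 2 sets were 24.2 and 25.1. A region missing from a list had no peak listed there, which does not show that the RNA carried no signal.

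A single region that followed the genotype was among the strongest peaks. Gm31166, a transcribed processed pseudogene on chromosome 19, had a peak at chr19:5512528-5512941 with folds of 2430 in knockout 1 and 1120 in knockout 2, at percentiles 96.5 and 95.2, and no listed peak in either wild-type list. In RefSeq the peak lies inside the span of Gm31166, 1820 bp from Snx32, a sorting nexin gene that had 0 listed peaks in every library. The fold in knockout 1 is the highest of any pseudogene peak there. The next, Zfp862-ps, a unitary pseudogene of a zinc finger gene on chromosome 6, had folds of 128 and 252 in the knockout lists at chr6:48532137-48532706, at percentiles 75.4 and 77.0. The same gene had other regions with peaks in all 4 lists, and its best wild-type peaks, at another place in the gene, stood at percentiles 50.4 and 61.2.

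All other pseudogene regions in both knockout lists only had mean percentiles of 39.2 or less. Gm10434, Gm18765, Gm6611, Gm5641, Gm15772 and Gm6524 headed them, with folds between 2.07 and 21.6 in those regions. In both wild-type lists only were Gm10110, AC164883.3, Gm17833 and Gm19040, with mean percentiles from 3.34 to 20.5. Among processed transcripts, Gm20036 (folds 16.0 and 8.96) and Gm12655 (5.61 and 14.2) were in both knockout lists only, and Eldr (9.40 and 11.1) was in both wild-type lists only. These 3 stood at mean percentiles of 21.1, 17.4 and 13.1.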

How the data were processed

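MeRIP-seq peak lists of 2 Mettl5 knockout and 2 wild-type libraries were analysed, grouped by the genotype in the labels. HISAT2, HOMER and mm10 are named, with no role, per the submitters' processing notes. Neither the peak caller nor the background of the enrichment is given in the sources used here. Each list was deposited per library, not on pooled libraries. For every peak the authors deposited a p-value and its log10, the log10 of an adjusted one, and the fold enrichment (a ratio), per the file headers. Spans, exon blocks, gene, class and biotype also came from the deposited columns.

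Computed here were the kind of each peak, its p-value percentile within its list with ties at their mid-rank, and overlaps with other genes' peaks. Regions were joined over exon blocks on either strand (at least 1 bp). Listed genes were matched to RefSeq genes (GRCm38.p6) and their classes by symbol or by an unambiguous synonym. A parent was the RefSeq gene whose symbol remains once -ps and its number are removed. Shares carry 95% Wilson intervals. With 2 libraries per genotype no test was made and no model fitted. Members, lists and rules were chosen with earlier results of these data known.

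Named for each kind were the 10 genes in all 4 lists with the highest mean percentile, genes of regions that followed the genotype (at most 8 per direction), the 5 with most peaks and at most 6 per name list; genes outside this rule (pairs with parents, overlap partners, Chaserr, printed stretches, the RefSeq protein-coding examples) were picked after their values were seen. Not every gene this rule names is printed, and the result of 1 is not reported here. Alternatives were a reciprocal overlap of 50%, an adjusted p-value under 0.05, equal list lengths, the stronger 50% of each list, regions whose every peak belongs to the kind, strength by fold, and leaving out each library. Region joining was tested on simulated peaks. Python 3.11.15, pandas 2.3.3, numpy 2.4.6, scipy 1.17.1 and matplotlib 3.10.9 were used.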

Additional observations from a re-analysis of the deposited data

How the results depend on the processing

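Depth per library is unknown, and each genotype has 2 libraries. With peaks of an adjusted p-value under 0.05, pseudogene regions in both wild-type lists only went from 4 to 6. Processed transcript regions in both knockout lists only went from 2 to 3. The processed transcript share difference, near 0 in both, went from 0.00269 to -0.000839 percentage points, and the other results stayed close to their values. A reciprocal overlap of 50% gave 5 processed transcript regions in both knockout lists only (2 otherwise), 3 in both wild-type lists only (1 otherwise), and 11 pseudogene regions in both wild-type lists only (4 otherwise). Lists of equal length gave 8 pseudogene and 2 processed transcript regions in both wild-type lists only, and 25 and 2 in both knockout lists only (30 and 2 otherwise). The stronger 50% of each list left 95 pseudogene and 21 processed transcript regions in all 4 lists, 15 and 0 in both knockout lists only, and 2 and 0 in both wild-type lists only, from fewer peaks. Counting only regions whose every peak belonged to the kind left 31 processed transcript regions in all 4. Ranking by fold put the median processed transcript peak at percentile 40.9 instead of 37.8. Leaving out 1 library in turn gave 49 to 132 pseudogene and 6 to 23 processed transcript regions in the remaining knockout lists only, 9 to 36 and 6 to 14 in the remaining wild-type lists only, and a processed transcript share difference, knockout minus wild type, of -0.0603 to 0.0657 percentage points, with fewer lists to be absent from. Those 132 and 23 were without knockout 2, and 36 and 14 without knockout 1. The pseudogene share difference kept its sign, at 0.210 to 0.733 percentage points. No paired analysis was possible because only the knockout libraries are numbered in the labels and nothing here was fitted.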
